A study of Homo sapiens with 6 samples.

Results

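Ephrins, Eph receptors, semaphorins and plexins are the ligands and receptors through which neighbouring cells attract or repel each other. The genes were taken from the expression table by symbol: EPHA, EPHB, EFNA or EFNB followed by a number, SEMA followed by a number, and PLXN followed by A, B, C or D and a number. This gave 51 protein-coding genes out of 61731 genes and loci, namely 8 ephrin ligands, 14 Eph receptors, 20 semaphorins and 9 plexins. Symbols that carry a suffix, such as antisense genes and the EFNA4-EFNA3 readthrough, were left out. The data came from U87-MG, an established human glioblastoma cell line, sequenced as 6 RNA libraries. The labels put 3 libraries in a normal control group and 3 in a CHRM knockdown group, and the study's methods name the subtype as CHRM3, the M3 muscarinic acetylcholine receptor, targeted by lentivirus. Which knockdown sequence each library carried, and what the control cells received, is not stated in the sources used here. Values were deposited as TPM, each gene's share of a library's transcripts after correction for length, scaled to the same total, so levels of different genes can be compared on this scale. Sequencing depth cannot be recovered from TPM and is unknown for each library.

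Ephs are receptor tyrosine kinases, and their ephrin ligands are held in the membrane of the neighbouring cell, ephrin-As by a lipid anchor and ephrin-Bs by a membrane-spanning segment, so that contact signals into both cells. Semaphorins are secreted (class 3) or membrane-bound and act on plexins, whose cytoplasmic part switches off small GTPases of the Ras and Rap type and thereby loosens adhesion. Both systems steer axons and blood vessels in development, and in glioblastoma they have been studied for cell migration, invasion and vessel growth.

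CHRM3, the labelled target (ENSG00000133019), was near 0 in every library. It measured 0.02, 0.09 and 0.13 TPM in controls, against 0.13, 0.01 and 0.02 TPM in the libraries labelled knockdown. Values of the groups overlapped, and the difference of the means (0.08 against 0.0533 TPM) had an exact two-sided permutation p of 0.8, where the smallest p that 3 against 3 allows is 0.1. At levels this low these libraries do not show the knockdown and cannot settle whether it took place, other measurements of CHRM3 were not used here, and the directions below are those of the libraries labelled knockdown. Nothing in the labels says that the 3 libraries of a group come from separate cultures, so p-values measure only the spread between these samples.

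Of 12 glioma cell markers, the mesenchymal genes were high, with VIM at 6531, 6528 and 6663 TPM in controls, against 7244, 7433 and 7451 TPM in libraries labelled knockdown. CD44 lay between 459 and 619.7 TPM, while the astrocyte filament gene GFAP lay between 0.87 and 1.46 TPM. Of the 7 tested, 3 rose (VIM, CHI3L1 and NES) and 3 fell (CD44, FN1 and EGFR), 85.7% in either direction, against 36.1% of all genes tested. EGFR lost the call with median-of-ratios scaling (adjusted p = 0.0601), with quantile normalization (0.0906) and without control replicate 1 (0.0532). VIM lost it with quantile normalization (adjusted p = 0.0615) and NES with no limit on low values (0.0535). SOX2, OLIG2, PDGFRA and S100B were under 1 TPM in every library and AQP4 was listed at 0. All 7 leukocyte, 5 endothelial and 4 oligodendrocyte markers were under 1 TPM in every library. In the neuron list 4 of 6 genes were under 1 TPM, and SNAP25 rose (log2 fold change 0.47, adjusted p = 0.00255). GAD1 did not pass (-0.22, adjusted p = 0.0534). It passed with the limit of 5 TPM (adjusted p = 0.0409), with protein-coding genes only (0.0408) and without knockdown replicate 3 (0.0382). Of the 4 epithelial markers 3 were under 1 TPM, and EPCAM lay between 0.63 and 1.44 TPM and did not pass (adjusted p = 0.16). In bulk RNA, fewer cells of a type and less RNA per cell cannot be told apart.

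Of the 51 genes, 26 averaged 1 TPM or more over the 6 libraries and were tested with limma on log2(TPM + 1) among 13722 genes, and all 26 also averaged 1 TPM or more in each group. At an adjusted p under 0.05, 12 of the 26 genes (46.2%) differed, against 36.1% of all genes tested. Higher in the libraries labelled knockdown were 7 genes (26.9%, against 12.1% of all genes), and lower were 5 genes (19.2%, against 24.0%). The rises were those of EFNB2, SEMA5A, SEMA4B, EPHA5, EPHA2, SEMA3C and SEMA7A. The falls were those of PLXNB1, PLXNB2, SEMA4C, EFNB1 and EPHB2. With a log2 fold change of 0.5 or more in size as well, 5 genes (19.2%) remained, against 8.02% of all genes. None of the 26 reached an absolute log2 fold change of 1 in limma, at an adjusted p or at an unadjusted p under 0.05, against 1.87% of all genes. Groups of 3 did not overlap for 16 of the 26 genes (61.5%), against 50.2% of all genes. The median log2 fold change was 0.13 over the 26 genes and -0.06 over all genes tested, and the median absolute value was 0.30 and 0.18. Fold changes are on the log2(TPM + 1) scale, which understates the change of low genes.

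The count of family genes that fell changed with the scaling and with the libraries included, as did the share of all genes tested. With median-of-ratios scaling and with quantile normalization the split was 8 higher and 2 lower. In these fits 16.8% and 16.3% of all genes were higher, and 16.4% and 16.2% lower. Without control replicate 1 or 3 the falls numbered 2, and without control replicate 2, knockdown replicate 1 or knockdown replicate 3 they numbered 3, and without knockdown replicate 2 they numbered 4. The share of all genes that were lower was 18.5% to 20.03% with a library left out. In every alternative fit that tested them 9 of the 12 genes passed, the exceptions being EFNB1, EPHB2 and PLXNB1.

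**Figure D1:**
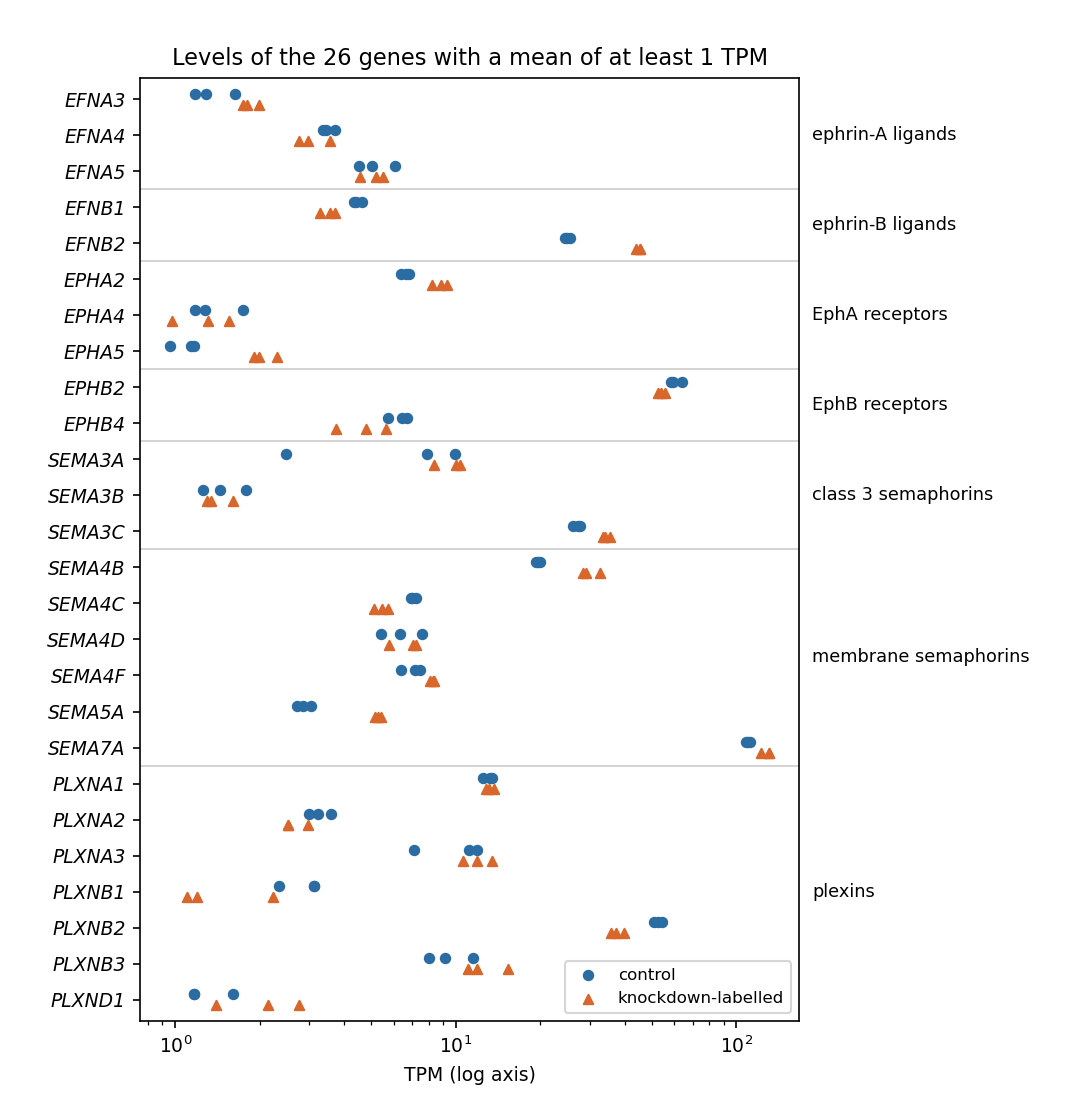
TPM on a log axis of the 26 family genes averaging 1 TPM or more, by class, with each control library as a circle and each library labelled knockdown as a triangle. SEMA7A, EPHB2 and PLXNB2 lie to the right, and the circle of SEMA3A at 2.49 TPM stands apart from the other controls.

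**Figure D2:**
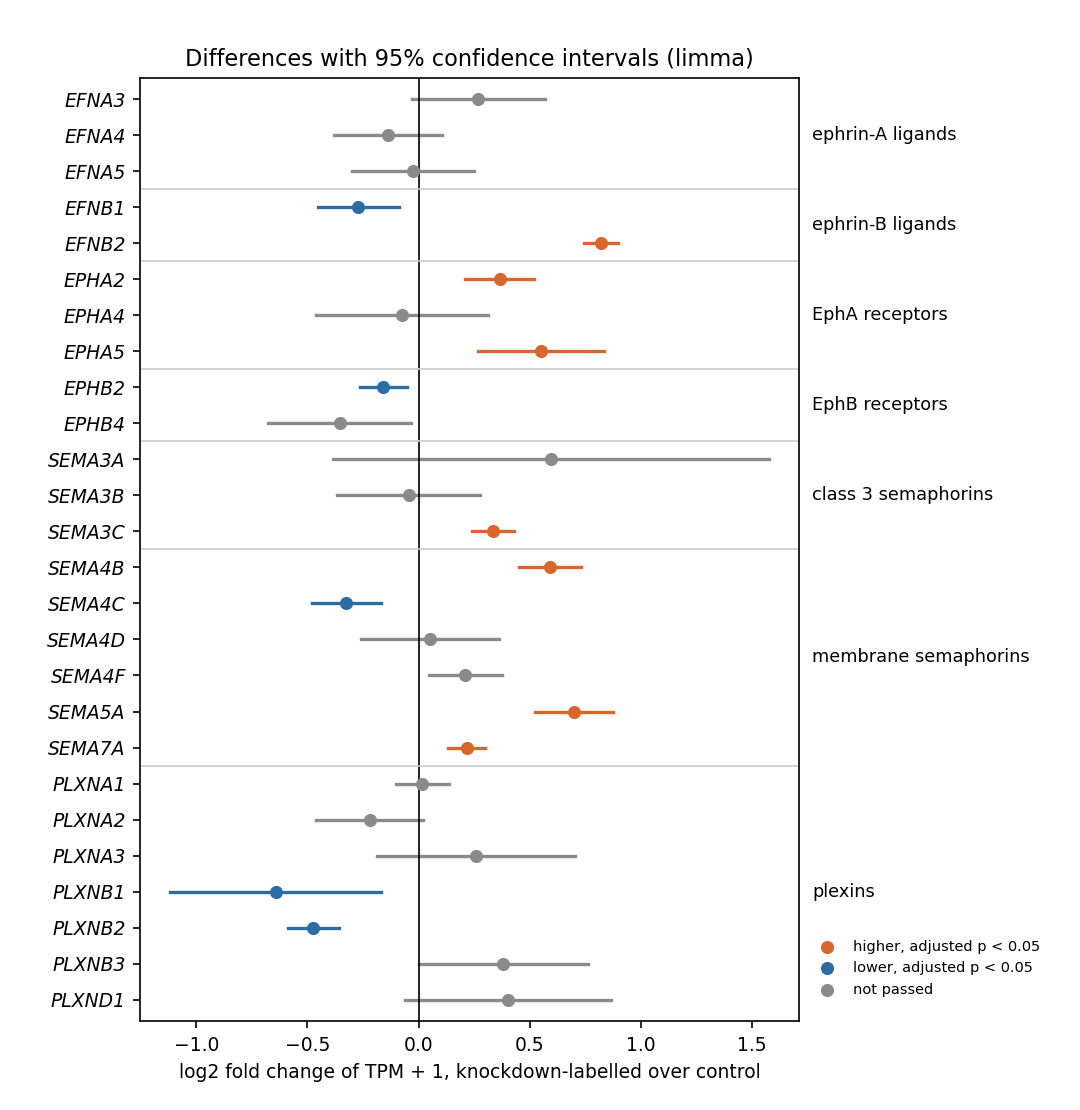
Log2 fold change of TPM + 1 (libraries labelled knockdown over control) of the same 26 genes, with points for limma estimates and lines for 95% confidence intervals, coloured by call. EFNB2 at 0.82 is farthest above 0 among the genes that passed and PLXNB1 at -0.64 farthest below.

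Ephrin-Bs act both as ligands and as receptors, since binding sends a signal back into the cell that carries them. Artery and vein cells are kept apart by the pair of ephrin-B2 and EphB4. On the log2(TPM + 1) scale EFNB2 had the largest change among the family genes that passed, while in mean TPM the fold changes of EPHA5 (1.89), SEMA5A (1.84) and PLXNB1 (0.527, or 1.90 times lower) were larger than its 1.80. The summed level of the 3 ephrin-B genes was 29.4 ± 0.382 TPM in controls, against 48.4 ± 0.65 TPM in libraries labelled knockdown, and the rise of EFNB2 alone was larger than this difference. Values after ± here and below are the SD of 3 libraries. EFNB2 (ephrin-B2; ENSG00000125266, chr13:106489731-106535662, minus strand), the membrane-spanning ligand that pairs with EPHB4 between arteries and veins, measured 24.6, 24.8 and 25.5 TPM in controls, and 45.2, 45.5 and 43.9 TPM in libraries labelled knockdown. Every library labelled knockdown was far above every control, with little spread within either group. EFNB2 rose 1.80-fold in mean TPM, a log2 fold change of 0.82 (95% confidence interval 0.74 to 0.90, limma adjusted p = 1.8e-05). It passed in all 17 alternative fits, at adjusted p of 3.8e-06 to 0.00132. An antisense locus shares 1313 of the 5019 exonic bases of EFNB2 and had a mean of 0.145 TPM.

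EFNB1 (ephrin-B1; ENSG00000090776, chrX:68828997-68842147, plus strand), a ligand of the EphB receptors, moved the other way. Its level was 4.61, 4.33 and 4.39 TPM in controls, and 3.55, 3.27 and 3.72 TPM in libraries labelled knockdown, with all values labelled knockdown below the lowest control. EFNB1 fell by 0.27 on the log2 scale (adjusted p = 0.0337). The call was lost in 10 of 16 alternative fits, where adjusted p reached 0.102. With 5 samples it was lost without each of the controls (adjusted p 0.102, 0.072 and 0.0778 without replicate 1, 2 and 3) and without knockdown replicate 1 (0.0734) or 2 (0.093). The ratio of EFNB2 to EFNB1 was 5.33, 5.73 and 5.80 in the controls and 12.7, 13.9 and 11.8 in the libraries labelled knockdown, without overlap. That follows from the single genes, whose groups lay apart in opposite directions, and adds no separate evidence. The remaining ephrin-B gene lay at 0 to 0.03 TPM.

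Ephrin-As, tied to the outer membrane leaflet by a lipid, are the ligands of EphA receptors and can be cut loose by proteases. Their summed level was 10.1 ± 0.651 TPM in controls, against 10.1 ± 0.656 TPM in libraries labelled knockdown, with overlapping values. None of the 3 tested genes passed in limma at an adjusted p (36.1% of all genes did) or at an unadjusted p under 0.05. EFNA5, the most abundant of them and a ligand of EphA receptors, measured 6.06, 5.01 and 4.52 TPM in controls, and 5.48, 4.54 and 5.18 TPM in libraries labelled knockdown. EFNA4 measured 3.44, 3.71 and 3.36 TPM in controls, and 2.76, 2.98 and 3.56 TPM in libraries labelled knockdown. For both, the groups overlapped (log2 fold change -0.03, adjusted p = 0.884 for EFNA5; -0.14, adjusted p = 0.333 for EFNA4). EFNA3 measured 1.29, 1.18 and 1.63 TPM in controls, and 1.74, 1.80 and 1.99 TPM in libraries labelled knockdown, and its groups did not overlap, but the log2 fold change of 0.27 had an adjusted p of 0.142. The other 2 ephrin-A genes lay between 0 and 0.1 TPM.

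Eph receptors form clusters when they meet ephrins on a neighbouring cell, and their kinase then changes adhesion and the cytoskeleton. EphA receptors mostly bind ephrin-As. Among them, 2 of the 3 tested genes rose in the libraries labelled knockdown and none fell in limma, at an adjusted p or at an unadjusted p under 0.05. At an adjusted p 12.1% of all genes tested were higher and 24.0% lower, and 3 genes are few to set against these shares. EPHA2 (ENSG00000142627, chr1:16124337-16156087, minus strand), a receptor of ephrin-As that is abundant in many gliomas, measured 6.36, 6.62 and 6.82 TPM in controls, and 9.32, 8.86 and 8.19 TPM in libraries labelled knockdown. The lowest library labelled knockdown was above the highest control. The log2 fold change was 0.36 (95% confidence interval 0.21 to 0.52, adjusted p = 0.00625), a 1.33-fold rise in mean TPM.

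EPHA5 (ENSG00000145242, chr4:65319563-65670495, minus strand), a neuronal ephrin-A receptor, was low, at 0.96, 1.17 and 1.14 TPM in controls, and 1.90, 2.30 and 1.99 TPM in libraries labelled knockdown. Its groups did not overlap, and its mean rose 1.89-fold, with a log2 fold change of 0.55 (95% confidence interval 0.27 to 0.84, adjusted p = 0.0129). The non-coding gene EPHA5-AS1 lies on the opposite strand, shares 535 of the 9833 exonic bases of EPHA5 and averaged 2.88 TPM in controls, against 4.40 TPM in libraries labelled knockdown. Its groups overlapped, and it did not pass (adjusted p = 0.0607). Whether strand was used in counting is not given in the sources used here, so reads from the shared bases cannot be told apart. EPHA4, which binds ephrins of both classes, measured 1.28, 1.74 and 1.18 TPM in controls, and 1.56, 1.31 and 0.97 TPM in libraries labelled knockdown. These values overlapped (log2 fold change -0.08, adjusted p = 0.754). The other 6 EphA genes had means of 0 to 0.717 TPM, and the highest single value among them was 1.10 TPM.

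EphB receptors bind the membrane-spanning ephrins and guide cell sorting at tissue boundaries. Most of their summed level was EPHB2, and the sum was lower in the libraries labelled knockdown. Their summed level was 68.5 ± 3.93 TPM in controls, against 59.7 ± 1.72 TPM in libraries labelled knockdown, and the groups did not overlap. EPHB2 (ENSG00000133216, chr1:22710839-22921500, plus strand), a receptor of ephrin-Bs linked to glioma cell migration, was after SEMA7A the most abundant gene of the family, at 59.4, 58.2 and 64.1 TPM in controls, and 52.8, 55.6 and 53.96 TPM in libraries labelled knockdown. All 3 libraries labelled knockdown were below all 3 controls by a small margin. EPHB2 fell by 0.16 on the log2 scale (adjusted p = 0.031), to 0.893 times the control mean. The call was lost in 9 of 17 alternative fits, among them median-of-ratios scaling (log2 fold change -0.09, adjusted p = 0.144), with adjusted p from 0.0214 to 0.144 over all. It was also lost without control replicate 1 (adjusted p 0.061) or 3 (0.0617) and without knockdown replicate 1 (0.0862) or 3 (0.0766).

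EPHB4, the receptor of ephrin-B2 on venous endothelium, measured 6.69, 5.71 and 6.41 TPM in controls, and 4.78, 5.65 and 3.75 TPM in libraries labelled knockdown. Its groups did not overlap, yet knockdown replicate 2 came within 0.06 TPM of the lowest control, and the log2 fold change of -0.36 had an adjusted p of 0.0815. It passed in 1 of 17 alternative fits, that without knockdown replicate 2 (-0.47, adjusted p = 0.0366), and was -0.23 without knockdown replicate 3 (adjusted p = 0.161). SLC12A9, a gene on the opposite strand, shares 69 of the 6435 exonic bases of EPHB4 and was present at a mean of 11.2 TPM. The other 3 EphB genes had means under 1 TPM, and 1 of them reached 2.06 TPM in 1 control. EPHA8 and EPHB6 were listed at 0 in every library and are named here after their values were seen.

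Ligand and receptor shifted in relative amount within the same libraries. The TPM ratio of EFNB2 to EPHB2 was 0.414, 0.426 and 0.397 in the controls and 0.856, 0.819 and 0.813 in the libraries labelled knockdown. Its mean went from 0.412 to 0.829, and the groups did not overlap. The ratio of EFNB2 to EPHB4 was 3.68, 4.35 and 3.97 in the controls and 9.45, 8.05 and 11.7 in the libraries labelled knockdown, also without overlap. For both ratios this was fixed by the single genes, and it adds no separate evidence. Every library labelled knockdown was above all controls for EFNB2, and below all controls for EPHB2 and EPHB4. Ratios within a library do not depend on the scaling between libraries, and by themselves they show unequal change, not which of the genes moved. Taken singly, EFNB2 was at 1.80 times the control mean, EPHB2 at 0.893 times and EPHB4, which did not pass, at 0.754 times.

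Semaphorins were named for their part in guiding axons, and in tumours they act on vessels, immune cells and the tumour cells themselves. They were the most abundant of the 4 groups and were higher in sum in the libraries labelled knockdown, at 231 ± 6.08 TPM against 190.4 ± 3.26 TPM in controls, without overlap, also after median-of-ratios scaling (186 ± 2.90 TPM to 237 ± 5.32 TPM). Of the 20 genes 9 were tested, of which 4 rose, 1 fell and 4 did not pass, where 12.1% of all genes tested were higher and 24.0% lower. SEMA7A, SEMA3C and SEMA4B made up most of the sum.

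Of the secreted class 3 genes, SEMA3C (ENSG00000075223, chr7:80742538-80922359, minus strand), which acts through neuropilins and plexins and has been studied in glioma stem cells, was the most abundant. It measured 27.3, 26.2 and 27.6 TPM in controls, and 34.01, 35.6 and 33.6 TPM in libraries labelled knockdown. The groups were well apart, and SEMA3C rose 1.27-fold, with a log2 fold change of 0.34 (95% confidence interval 0.24 to 0.43, adjusted p = 0.00109). SEMA3A, which collapses growth cones through NRP1 and plexin-A receptors, measured 2.49, 9.90 and 7.87 TPM in controls, and 10.03, 8.34 and 10.3 TPM in libraries labelled knockdown. Control replicate 1 was far below the other 5 libraries, which overlapped, and the log2 fold change of 0.60 did not pass (adjusted p = 0.304). Without control replicate 1 it was 0.10 (adjusted p = 0.608). SEMA3B, a secreted semaphorin with tumour suppressor activity in lung cancer, lay at 1.26 to 1.78 TPM with overlapping groups (log2 fold change -0.04, adjusted p = 0.831). The other 4 class 3 genes stayed between 0 and 0.39 TPM.

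The membrane semaphorins moved in both directions. SEMA7A (ENSG00000138623, chr15:74409289-74433958, minus strand), a lipid-anchored semaphorin that binds PLXNC1 and integrins, was the most abundant gene of the family, at 109.7, 108 and 112 TPM in controls, and 131, 131 and 122 TPM in libraries labelled knockdown. All libraries labelled knockdown were above all controls, a 1.16-fold rise (log2 fold change 0.22, 95% confidence interval 0.13 to 0.30, adjusted p = 0.00373). Its plexin receptor PLXNC1, named after its values were seen, lay at 0.05 to 0.11 TPM in all libraries. The integrin subunit gene ITGB1 was at 494, 480.4 and 497 TPM in controls, against 513, 501 and 499 TPM in libraries labelled knockdown.

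SEMA4B (ENSG00000185033, chr15:90160604-90229679, plus strand), a membrane-spanning class 4 semaphorin, measured 19.6, 19.2 and 19.98 TPM in controls, and 29.2, 32.6 and 28.4 TPM in libraries labelled knockdown. The groups did not overlap, and knockdown replicate 2 was the highest. SEMA4B rose 1.53-fold, with a log2 fold change of 0.59 (95% confidence interval 0.45 to 0.73, adjusted p = 0.000529). SEMA5A (ENSG00000112902, chr5:9035026-9546075, minus strand), a class 5 semaphorin with thrombospondin repeats that binds PLXNB3, measured 3.04, 2.72 and 2.85 TPM in controls, and 5.29, 5.41 and 5.15 TPM in libraries labelled knockdown. The groups were narrow and far apart, and SEMA5A rose 1.84-fold (log2 fold change 0.70, 95% confidence interval 0.52 to 0.88, adjusted p = 0.000705).

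SEMA4C (ENSG00000168758, chr2:96859716-96870757, minus strand), the ligand of PLXNB2, was the semaphorin that fell. Its values were 7.23, 6.93 and 6.99 TPM in controls, and 5.45, 5.09 and 5.75 TPM in libraries labelled knockdown, with no overlap. SEMA4C fell by 0.33 on the log2 scale (95% confidence interval -0.48 to -0.17, adjusted p = 0.00949), to 0.77 times the control mean. The TPM ratio of SEMA4B to SEMA4C went from 2.71, 2.77 and 2.86 in the controls to 5.35, 6.41 and 4.94 in the libraries labelled knockdown. This restates the rise of SEMA4B and the fall of SEMA4C and adds no separate evidence. SEMA4F, a further class 4 semaphorin, measured 7.16, 6.39 and 7.48 TPM in controls, and 8.37, 8.28 and 8.09 TPM in libraries labelled knockdown. These did not overlap, and the log2 fold change of 0.21 was just over the threshold (adjusted p = 0.0542), and under it in 4 of 17 alternative fits (adjusted p from 0.0227 to 0.128 over all). SEMA4D, the ligand of PLXNB1, lay at 5.40 to 7.56 TPM with overlapping groups (log2 fold change 0.05, adjusted p = 0.792). The other 7 membrane semaphorins had means of 0.0817 to 0.565 TPM.

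Plexins are the main receptors of semaphorins, and their cytoplasmic part acts on small GTPases of the Ras family. The 4 plexin-A genes work mostly with neuropilins, while plexin-Bs bind class 4 semaphorins directly. Plexins were lower in sum in the libraries labelled knockdown, at 82.6 ± 4.91 TPM against 92.8 ± 2.30 TPM in controls, and PLXNB2 alone fell by more than this difference. The groups did not overlap in TPM, and they overlapped after median-of-ratios scaling (90.5 ± 2.10 TPM in the controls, 84.6 ± 4.66 TPM in the libraries labelled knockdown). Of the 7 tested plexins 2 fell, 5 did not pass and none rose in limma at an adjusted p. At an unadjusted p under 0.05, 1 was higher. Over all genes tested 24.0% were lower and 12.1% higher at an adjusted p, so the count of plexins that fell is near the share of all genes.

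PLXNB2 (ENSG00000196576, chr22:50274979-50307627, minus strand), the receptor of SEMA4C and a gene of glioma and neural progenitor migration, measured 54.2, 50.8 and 52.6 TPM in controls, and 37.2, 39.7 and 35.8 TPM in libraries labelled knockdown. Every library labelled knockdown was more than 11 TPM below the lowest control. PLXNB2 fell by 0.47 on the log2 scale (95% confidence interval -0.59 to -0.36, adjusted p = 0.000575), to 0.716 times the control mean, and passed in all 17 alternative fits (adjusted p 0.000193 to 0.00673). Its ligand SEMA4C fell as well, and the TPM ratio of SEMA4C to PLXNB2 was 0.133, 0.136 and 0.133 in the controls and 0.146, 0.128 and 0.16 in the libraries labelled knockdown, with overlap.

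PLXNB1 (ENSG00000164050, chr3:48403854-48430051, minus strand), the receptor of SEMA4D, was low, at 3.11, 2.34 and 3.12 TPM in controls, and 2.23, 1.10 and 1.19 TPM in libraries labelled knockdown. Knockdown replicate 1 was only just below the lowest control, and the other 2 were well below it. The log2 fold change of -0.64 (95% confidence interval -1.12 to -0.17) had an adjusted p of 0.0446, and the call was lost in 11 of 16 alternative fits, with adjusted p from 0.0106 to 0.123 over all. It was lost without control replicate 1 (-0.59, adjusted p = 0.122), 2 (-0.74, 0.0565) or 3 (-0.59, 0.121) and without knockdown replicate 2 (-0.53, 0.119) or 3 (-0.56, 0.119).

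Of the plexins that did not pass, PLXNA1, a partner of neuropilins for class 3 semaphorins, was the most abundant at 12.5 to 13.7 TPM with overlapping groups (log2 fold change 0.02, adjusted p = 0.826). PLXNB3, the receptor of SEMA5A, measured 8.04, 11.5 and 9.12 TPM in controls, and 11.02, 15.4 and 11.9 TPM in libraries labelled knockdown. Those groups overlapped (log2 fold change 0.38, adjusted p = 0.107). The value was 0.25 without knockdown replicate 2 (adjusted p = 0.255) and 0.51 without control replicate 2 (adjusted p = 0.0523). PLXNB3 passed in 1 of 17 alternative fits, that with a term for the replicate number. The antisense gene PLXNB3-AS1 overlaps it without sharing exonic bases, whereas SRPK3 on the same strand shares 1432 of its 7007 exonic bases at a mean of 0.115 TPM. PLXNA3, which acts with NRP2, measured 7.12, 11.1 and 11.9 TPM in controls, and 13.5, 11.9 and 10.6 TPM in libraries labelled knockdown. Control replicate 1 was the lowest, as for SEMA3A, and the log2 fold change of 0.26 (adjusted p = 0.33) was 0.05 without it; LAGE3, on the opposite strand, shares 11 exonic bases with PLXNA3. PLXNA2, a receptor of class 6 semaphorins, lay at 2.52 to 3.60 TPM, its 3 libraries labelled knockdown below all controls (log2 fold change -0.22, adjusted p = 0.138). PLXND1, the vascular receptor of SEMA3E, measured 1.61, 1.17 and 1.17 TPM in controls, and 1.40, 2.14 and 2.76 TPM in libraries labelled knockdown. The groups overlapped, with a log2 fold change of 0.40 (adjusted p = 0.154), 0.57 without knockdown replicate 1 (adjusted p = 0.047) and 0.25 without knockdown replicate 3 (adjusted p = 0.36). It passed in 1 of 16 alternative fits.

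Summed over all 51 genes, the family made up 395, 398 and 412 TPM in controls, against 445, 458 and 432 TPM in the libraries labelled knockdown. The groups did not overlap, with or without median-of-ratios scaling. EphA receptors (10.6 ± 0.469 TPM to 13.02 ± 1.03 TPM) and class 3 semaphorins (35.7 ± 3.02 TPM to 45.9 ± 0.175 TPM) were higher in sum, and the lowest class 3 sum was that of control replicate 1, where SEMA3A was low.

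Another 25 genes had a mean under 1 TPM and were not tested, of which all but EPHA8 and EPHB6 were above 0 in at least 1 library. Among these 23 genes, all libraries labelled knockdown lay below all controls in 5 (21.7%) and above them in 4 (17.4%). Over all protein-coding genes that low the shares were 6.82% and 6.73%, and over all genes and loci that low 4.59% and 4.05%.

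Promoter sequences of the tested genes were read to show what their start regions share. RefSeq (GRCh38.p14) gave the 250 bases before the start for 25 of the 26 tested genes, SEMA3A being the missing entry. A GC box (GGGCGG, either strand) was present in 22 of the 25 windows (88%), against 67.2% of 9878 tested genes with a window and 42.3% of all 27305 windows. The median GC content was 67.6% in the family, 64.8% over tested genes and 58% over all windows. CCAAT was found in 28% of family windows and 35.4% of tested ones (33.04% of all), and TATAAA in 4% and 5.51% (11.1% of all). TGACGTCA, the cAMP response element, was in 2 family windows (8%), against 3.16% of tested and 1.77% of all windows. TGANTCA, the AP-1 motif, was in 0 family windows, against 4.11% of tested and 6.60% of all windows. Both strands were searched for each motif, and a match describes letters, not binding.

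Windows are printed for EFNB2 and SEMA5A, which rose, and PLXNB2, which fell. These were chosen after the values were seen, as the genes with an adjusted p under 0.001 whose window holds no exon of a protein-coding gene in GENCODE 29. The EFNB2 window (chr13:106535663-106535912, minus strand) and the SEMA5A window (chr5:9546076-9546325, minus strand) lie outside the annotated gene, and the latter holds an exon of the non-coding gene SNHG18. The PLXNB2 window (chr22:50301670-50301919, minus strand) lies inside the annotated gene, in an intron of transcripts that start farther upstream. Capitals mark GC boxes on either strand, and coordinates are GRCh38.
EFNB2: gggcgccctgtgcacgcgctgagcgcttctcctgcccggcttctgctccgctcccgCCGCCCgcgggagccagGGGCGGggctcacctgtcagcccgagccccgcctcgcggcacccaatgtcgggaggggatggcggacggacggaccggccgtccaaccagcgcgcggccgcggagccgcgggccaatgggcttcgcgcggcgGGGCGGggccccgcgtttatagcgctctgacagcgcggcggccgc
SEMA5A: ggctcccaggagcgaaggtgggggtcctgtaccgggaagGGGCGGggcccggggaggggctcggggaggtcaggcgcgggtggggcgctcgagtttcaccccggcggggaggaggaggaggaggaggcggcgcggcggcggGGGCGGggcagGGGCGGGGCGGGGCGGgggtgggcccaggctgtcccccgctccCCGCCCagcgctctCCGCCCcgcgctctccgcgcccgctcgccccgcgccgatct
PLXNB2: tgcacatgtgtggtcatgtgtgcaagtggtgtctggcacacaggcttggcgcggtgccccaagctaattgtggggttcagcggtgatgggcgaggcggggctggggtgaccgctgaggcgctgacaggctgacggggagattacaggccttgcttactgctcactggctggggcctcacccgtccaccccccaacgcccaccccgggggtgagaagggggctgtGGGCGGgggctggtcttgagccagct
The GC box occurred 3 times in the EFNB2 window, 7 times in that of SEMA5A, where some matches overlap, and 1 time in that of PLXNB2.

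Guidance receptors work through partners in the membrane, switches and kinases inside the cell, and proteases that shed or process the ligands. Such genes around the family, in 5 lists, were read from the same fit. Of their 72 tested genes 15 were higher and 18 lower in the libraries labelled knockdown (45.8%, against 36.1% of all genes tested), none with an absolute log2 fold change of 1 on the log2(TPM + 1) scale at an adjusted or unadjusted p under 0.05 in limma. In mean TPM 4 that passed changed by more than 2-fold, namely CD72 (2.76-fold lower), KDR (2.41-fold lower), KALRN (2.32-fold higher) and FLRT2 (2.18-fold lower). Of these, CD72 and KALRN averaged under 1 TPM in 1 group and were tested only through the other, where they are higher. Of the 72 genes 24 were higher and 13 lower with median-of-ratios scaling, and 23 and 13 with quantile normalization, where 33.2% and 32.5% of all genes passed in either direction. Their median log2 fold change was -0.02.

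Of 9 tested co-receptors 2 rose and 3 fell (55.6% in either direction, against 36.1% of all genes, median log2 fold change -0.06). The neuropilins, which hold class 3 semaphorins for the plexins, differed. NRP2 measured 81.97, 78.5 and 76.4 TPM in controls, and 64.6, 61.9 and 62.1 TPM in libraries labelled knockdown. It had a log2 fold change of -0.32 (adjusted p = 0.000847) with no overlap. NRP1, named after its values were seen, measured 89.1, 84.5 and 98.97 TPM in controls, and 103, 101 and 100.5 TPM in libraries labelled knockdown. Its log2 fold change of 0.16 had an adjusted p of 0.0679, and it passed in 4 of 17 alternative fits, with adjusted p from 0.00804 to 0.165 over all. These were median-of-ratios scaling (0.23, adjusted p = 0.0205), quantile normalization (0.24, 0.0229), protein-coding genes only (0.16, 0.0455) and the fit without control replicate 3 (0.22, 0.00804). KDR, a receptor of vascular endothelial growth factor that works with neuropilins, fell from 3.37 ± 0.221 TPM in controls to 1.40 ± 0.0557 TPM in libraries labelled knockdown (log2 fold change -0.86, adjusted p = 0.000857). CD72, a receptor of SEMA4D on B cells, fell from 1.66 ± 0.225 TPM in controls to 0.603 ± 0.208 TPM in libraries labelled knockdown (log2 fold change -0.74, adjusted p = 0.0131). Its mean in the libraries labelled knockdown was under the limit of 1 TPM, so CD72 was tested only through its level in controls. PTK7, a pseudokinase that binds plexins, rose from 5.26 ± 1.01 TPM in controls to 8.37 ± 0.979 TPM in libraries labelled knockdown (log2 fold change 0.59, adjusted p = 0.0162). Without control replicate 1 or knockdown replicate 2 its adjusted p was 0.0547 and 0.0546. The most abundant co-receptor, ITGB1, did not pass (log2 fold change 0.04, adjusted p = 0.184). It passed with median-of-ratios scaling (0.11, adjusted p = 0.0072) and with quantile normalization (0.08, adjusted p = 0.029).

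KDR is best known from endothelium and CD72 from B cells, so the markers of those cells stand beside them. The 5 endothelial markers summed to 0.13, 0.31 and 0.08 TPM in controls, against 0.18, 0.15 and 0.13 TPM in libraries labelled knockdown, with TEK the most abundant and CLDN5 at 0. The 7 leukocyte markers summed to 0.42, 0.3 and 0.29 TPM in controls, against 0.44, 0.43 and 0.14 TPM in libraries labelled knockdown, with CD14 the most abundant and TYROBP and CD3E at 0. Their part in the result was not tested.

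Of 23 tested effectors of semaphorins and plexins 6 rose and 5 fell (47.8% in either direction, against 36.1% of all genes, median log2 fold change 0.00). DPYSL3, a collapsin response mediator that binds the cytoskeleton, measured 27.8, 25.8 and 27.96 TPM in controls, and 50.3, 50.7 and 50.3 TPM in libraries labelled knockdown. Its groups were far apart (log2 fold change 0.87, adjusted p = 2.6e-05), a rise of 1.85-fold. MICAL2, an oxidase that takes actin filaments apart, rose from 72.5 ± 1.47 TPM in controls to 93.2 ± 1.44 TPM in libraries labelled knockdown (log2 fold change 0.36, adjusted p = 0.000199). MICAL3 had 0.38 (adjusted p = 0.0445), with the call lost without either of control replicates 1 and 3 or any 1 of the libraries labelled knockdown (adjusted p 0.056 to 0.12). The call was also lost with no limit on low values (adjusted p = 0.11), with the limit of 0.1 TPM (0.0639) and without the trend (0.0658). MICAL3 passed in 8 of 17 alternative fits. Among the 5 that fell, MICAL1 had -0.21 (adjusted p = 0.0218) and passed in 11 of 17. MICAL1 is named outside the rule for list genes and does not stand for the 5. Other falls in this list were larger, and some passed in all 17 alternative fits.

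Of 25 tested effectors of Eph receptors and ephrins 4 rose and 5 fell (36% in either direction, against 36.1% of all genes, median log2 fold change -0.02). SRC, the kinase that ephrin-Bs and Ephs recruit, measured 30.4, 29.8 and 30.5 TPM in controls, and 19.04, 20.7 and 20.3 TPM in libraries labelled knockdown. No value overlapped, and the log2 fold change was -0.57 (adjusted p = 0.000168). RASA1, a Ras GTPase activator that binds EPHB2, rose from 18.2 ± 0.91 TPM in controls to 25.4 ± 0.33 TPM in libraries labelled knockdown (log2 fold change 0.46, adjusted p = 0.000575). KALRN, an exchange factor downstream of EphB, rose from 0.62 ± 0.155 TPM in controls to 1.44 ± 0.223 TPM in libraries labelled knockdown (log2 fold change 0.59, adjusted p = 0.0242), with adjusted p of 0.0562 to 0.0723 without control replicate 2 or 3 or knockdown replicate 1 or 2. Its control mean was under the limit of 1 TPM, so KALRN was tested only through its level in the libraries labelled knockdown. VAV3, an exchange factor used by EphA receptors, had a log2 fold change of -0.38 (adjusted p = 0.0215), with 0.0534 to 0.0716 without control replicate 1 or 3 or any 1 library labelled knockdown. With no limit on low values its adjusted p was 0.0584. RGS3, which ephrin-Bs use to damp chemokine signals, was the most abundant at 221 ± 3.20 TPM in controls and 207 ± 1.59 TPM in libraries labelled knockdown (log2 fold change -0.09, adjusted p = 0.0124). It passed in 13 of 17 alternative fits, with adjusted p from 0.0109 to 0.382 over all. The call was lost with median-of-ratios scaling (-0.02, adjusted p = 0.382) and quantile normalization (-0.05, 0.0899). It was also lost without the trend (0.0749) and with a term for the replicate number (0.0545).

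Of 6 tested shedding and cleavage enzymes 3 fell and none rose in limma, at an adjusted p or at an unadjusted p under 0.05 (50% in either direction, against 36.1% of all genes, median log2 fold change -0.16). FURIN, which processes class 3 semaphorins, fell from 54.1 ± 1.46 TPM in controls to 44.99 ± 3.07 TPM in libraries labelled knockdown (log2 fold change -0.26, adjusted p = 0.011). ADAM17, a sheddase, had -0.37 (adjusted p = 0.0312), with 0.0663 to 0.0898 without control replicate 1 or 2 or knockdown replicate 2 or 3. It also lost the call with median-of-ratios scaling (adjusted p 0.0635), with quantile normalization (0.0583) and with no limit on low values (0.0794). ADAM17 passed in 10 of 17 alternative fits, with adjusted p from 0.014 to 0.0898 over all. ADAM10, the ephrin sheddase, was at 56.3 ± 1.04 TPM in controls and 58.5 ± 4.64 TPM in libraries labelled knockdown with overlapping groups (adjusted p = 0.527).

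Of 9 tested genes of other guidance families 3 rose and 2 fell (55.6% in either direction, against 36.1% of all genes, median log2 fold change -0.01). FLRT2, an adhesion protein that repels through UNC5 receptors, measured 9.76, 11.5 and 9.30 TPM in controls, and 5.27, 4.54 and 4.20 TPM in libraries labelled knockdown. Its log2 fold change of -0.98 (adjusted p = 0.00078) was the largest on this scale in the 5 lists among genes that passed. ROBO3, a Slit receptor family member, rose from 6.43 ± 0.439 TPM in controls to 9.41 ± 0.257 TPM in libraries labelled knockdown (log2 fold change 0.49, adjusted p = 0.00178). RGMB, a ligand of NEO1, had a log2 fold change of 0.32 (adjusted p = 0.00635). NEO1 itself had -0.42 (adjusted p = 0.0193), with 0.0572 to 0.0608 without control replicate 3 or knockdown replicate 1 or 2, and 0.0593 with no limit on low values. ROBO1, the most abundant, was at 31.5 ± 3.88 TPM in controls and 26.2 ± 0.484 TPM in libraries labelled knockdown and did not pass (log2 fold change -0.25, adjusted p = 0.0614), while without control replicate 3 it had 0.0115 (log2 fold change -0.34; adjusted p from 0.0115 to 0.162 over all alternatives).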

How the data were processed

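Total RNA of 6 U87-MG libraries (3 control, 3 labelled knockdown) was sequenced. The authors deposited TPM per gene and library, with values to 2 decimals. The submitters' processing notes name fastp, RSEM and GRCh38.p13, without versions. The aligner and the annotation are not given in the sources used here. The study's methods name a TruSeq kit and TRIzol, and the labels name SMARTer and RNeasy kits. Columns were matched to samples by label, and 0 columns had no sample. Symbols were found for 61369 of 61541 Ensembl identifiers, and types, exons and coordinates come from GENCODE 29 (GRCh38). Promoter sequences are from RefSeq (GRCh38.p14).

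Genes averaging 1 TPM or more were tested on log2(TPM + 1) with limma 3.58.1 (lmFit, and eBayes with a trend) in R 4.3.3, with the group as the only term, two-sided, and p-values adjusted by the Benjamini-Hochberg method over 13722 genes. A gene passed at an adjusted p under 0.05, and every adjusted p in the text is limma's. CHRM3 was compared by an exact permutation test (scipy 1.17.1). With depth unknown, neither counting error nor a limit of detection was computed. The procedure was tested on simulated data, where small changes were recovered less often than large ones.

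Every family gene averaging 1 TPM or more was named. Of each list, the most abundant gene and up to 4 genes with the largest absolute change among those that passed were named, apart from a few list genes that are not reported here. The lists were co-receptors, effectors of semaphorins and plexins, effectors of Ephs and ephrins, shedding enzymes, other guidance families and cell type markers. The members and lists were chosen with earlier results of these data known. Alternatives were pseudocounts of 0.1 and 0.5, no limit or limits of 0.1 and 5 TPM, median-of-ratios scaling, quantile normalization, no trend, protein-coding genes only, a term for the replicate number, a log2 fold change of 0.5 or of 1 or more in size, and each library left out in turn. The pseudocount of 0.1 with the limit of 0.1 TPM was added after the data were seen.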

Additional observations from a re-analysis of the deposited data

Results flagged for a closer look

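PLXNA4, a plexin of class 3 and class 6 semaphorins, and SEMA5B, a class 5 semaphorin, were under the limit for testing, yet all 3 libraries labelled knockdown lay above the highest control. This held for 4 untested family genes in all (17.4%), against 5 (21.7%) where they lay below the lowest. Over all protein-coding genes that low the shares were 6.73% above and 6.82% below. PLXNA4 measured 0.03, 0.03 and 0.10 TPM in controls, and 0.41, 1.28 and 0.40 TPM in libraries labelled knockdown, with a mean of 0.697 TPM in the latter, to which knockdown replicate 2 contributed most. SEMA5B was listed at 0 in the 3 controls and measured 0.35, 0.28 and 0.44 TPM in the libraries labelled knockdown, a mean of 0.357 TPM. With the limit lowered to 0.1 TPM, SEMA5B passed in limma (log2 fold change 0.44, adjusted p = 0.0125), as did EPHA7 (-0.39, adjusted p = 0.0261) and SEMA6B (-0.42, adjusted p = 0.0329), which were lower in the libraries labelled knockdown. In that fit 23.1% of all genes tested passed. PLXNA4 passed only in the alternative added after the data were seen. SEMA5B and PLXNA4 averaged under 0.1 TPM in controls and met that limit only through the libraries labelled knockdown. For both, the limit was thus met through the difference itself. These genes were named after their values were seen, and the cause of the difference was not tested.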

How the results depend on the processing

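Over the 26 tested family genes and 17 alternative fits, 384 estimates kept the direction and the side of the threshold, 30 kept the direction and lost the call, 7 gained it and 11 changed sign, the sign changes all in genes that had not passed. The genes higher numbered 5 to 9 in all alternatives. The genes lower numbered 5 in the reported fit, 3 with the limit of 5 TPM (which tests 16 of them), 2 with median-of-ratios scaling, 2 with quantile normalization and 3 without the trend, and between 2 and 4 when a library was left out. These scalings moved the median log2 fold change of all genes from -0.06 to 0.00, and 24 and 23 list genes were then higher, where 15 were reported. Over the alternative fits 4.55% to 16.8% of all genes were higher and 8.71% to 30.6% lower. An absolute log2 fold change of 1 was passed by 0 family genes as reported and by 4 with the pseudocount of 0.1 and the limit of 0.1 TPM, an alternative added after the data were seen. These were EPHA7 (-1.17), PLXNA4 (2.23), SEMA5B (2.18) and SEMA6B (-1.03), all under 1 TPM in mean. PLXNA4 and SEMA5B met the limit of 0.1 TPM only through the libraries labelled knockdown. SEMA5B was at 0 in the controls, so the size of its value is set by the pseudocount. In the reported fit, with an absolute log2 fold change of 0.5 in place of 1, 5 passed. EFNA5 (-0.03 as reported) was 0.0325 with median-of-ratios scaling and 0.0348 with quantile normalization, and SEMA3B (-0.04) was 0.0027 with the latter. With a library left out, EFNA5 ranged from -0.106 to 0.0718, EPHA4 from -0.163 to 0.0262, PLXNA1 from -0.0125 to 0.0396, SEMA3B from -0.112 to 0.0373 and SEMA4D from -0.0514 to 0.158. The cause of these changes was not tested. Same-numbered samples of the groups did not deviate together across genes (correlations of -0.020, 0.034 and 0.033). No pairing by number was thus seen over the tested genes as a whole, which cannot decide whether the samples were paired. With the replicate block 8 family genes were higher and 3 lower, where 9.98% of all genes were higher and 19.2% lower. PLXNB3 was among the family genes higher in that fit (adjusted p = 0.0113).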
